A study of Caenorhabditis elegans with 2 samples.

Results

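The weak promoter peaks of DPL-1 were the 551 peaks of the IDR-thresholded list (the irreproducible discovery rate compares the ranks of peaks between replicates) that had a pooled signal under 100, lay on chromosomes I to V and belonged by position to exactly 1 protein-coding gene. A summit belonged to a gene where it lay between 500 bp before and 200 bp after one of its annotated starts. They were 551 of 3369 thresholded peaks (16.4%) and of 1698 thresholded peaks with a signal under 100 (32.4%). Of the other weak peaks, 156 lay in the windows of several genes, 730 lay outside every window on the autosomes and 261 lay on the X chromosome. The 551 peaks belonged to 541 genes, and 10 of these genes had 2 such peaks. The peaks were selected on their pooled signal, so their signal is given here only as a description.

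Whole Caenorhabditis elegans at the L4 larval stage had been used for chromatin immunoprecipitation with sequencing against a GFP tag on DPL-1, in 1 group of 2 biological replicates. The worms, of both sexes and of unknown age within the stage, were of strain OP105, a unc119(ed3) mutant carrying the integrated transgene wgIs105. That transgene holds dpl-1 fused to TY1, EGFP and FLAG tags together with a rescuing unc119, so both replicates carry tagged dpl-1 in addition to the endogenous gene. The labels give no second stage, genotype or tissue, so peaks were compared with other peaks of the same animals.

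DPL-1 is the worm DP protein, which pairs with E2F transcription factors and lets them bind DNA. E2F and DP factors sit at promoters of genes for DNA replication and cell division, and in the DRM complex, the worm counterpart of mammalian DREAM, they keep such genes and germline genes repressed in cells that do not need them. The complex is known to use an E2F site together with a second element, the CHR, bound through its LIN-54 subunit.

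Windows of 91 bp centred on 5 of the weak summits show the sequences these factors are known for, read 5′ to 3′ on the strand of the gene, with the E2F site, the CHR, the GAGAG repeat GAGAGA and the SP1-like word CCGCCC in capitals on either strand. The E2F site was searched as TTCCCGC or TTCGCGC or TTGCCGC or TTGGCGC, and the CHR as TTTGAA or TTCGAA. com-1, a DNA repair gene, and cyk-7, a cytokinesis gene, are shown with an E2F site near the summit. C03C10.7 and E02C12.12 are shown because they held the most E2F sites and CHRs together within 100 bp of a weak summit. men-1 had the highest signal of several members tied for the next place. The sequences are those of the RefSeq WBcel235 genome, which is ce11.
com-1 (III:10895984-10896074, forward strand): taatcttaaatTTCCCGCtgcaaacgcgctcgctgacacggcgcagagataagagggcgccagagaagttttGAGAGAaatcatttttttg
cyk-7 (III:7795469-7795559, reverse strand): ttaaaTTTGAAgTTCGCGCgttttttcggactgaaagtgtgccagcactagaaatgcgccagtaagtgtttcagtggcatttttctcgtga
men-1 (II:14234516-14234606, reverse strand): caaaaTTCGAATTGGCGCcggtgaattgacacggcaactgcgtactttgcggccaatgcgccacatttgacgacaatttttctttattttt
C03C10.7 (III:4095583-4095673, forward strand): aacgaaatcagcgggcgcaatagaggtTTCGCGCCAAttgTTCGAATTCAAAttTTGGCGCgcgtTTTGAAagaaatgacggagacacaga
E02C12.12 (V:9382697-9382787, reverse strand): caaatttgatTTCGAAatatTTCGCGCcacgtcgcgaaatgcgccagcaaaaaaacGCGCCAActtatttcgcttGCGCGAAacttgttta

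Such windows were the minority. An E2F site lay within 100 bp of 70 of 551 weak summits (12.7%, exact 95% interval 10 to 15.8) and a CHR within 100 bp of 229 (41.6%, 37.4 to 45.8). Both were present at 39 summits (7.08%), and neither at 291 (52.8%). The same search in windows of 201 bp centred 174 bp upstream of the outermost start, the median position of the weak summits, found an E2F site in 7.09% and a CHR in 57.2% of 17242 autosomal promoters. The intervals cover the counting of windows only, and a match describes letters, not a bound site.

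The weak peaks ran from a pooled signal of 46.4 to 99.8, with a median of 64.1 (quartiles 54.1 and 79.1). The upper bound was the threshold of 100 and the lower one the end of the thresholded list, which held exactly the top 3369 peaks of the pooled list. Just under the upper bound were sir-2.1 at 99.82, rps-25 at 99.80 and nmt-1 at 99.79, and just over it immp-1 at 100.2 and C06B3.7 and cnk-1 at 100.3 each. The lowest weak peaks were those of F10E7.11 at 46.55, nhr-64 at 46.45 and prmt-5 at 46.41, and the next peaks of the pooled list at single-gene promoters, T21B10.3 at 46.37 and sup-36 at 46.30, fell outside the thresholded list. Neither bound was a gap in the values. In whole animals a low signal from few cells with much DPL-1 and one from many cells with little cannot be told apart.

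Most weak peaks also had a summit in the list of each replicate. The thresholded list was chosen by the agreement of these replicates, and the pooled signal comes from the same reads. The shares that follow are therefore a description and not independent support. A summit of the relaxed list lay within 100 bp in both replicates for 473 of 551 weak peaks (85.8%, exact 95% interval 82.7 to 88.6). It lay within that distance in replicate 1 only for 26, in replicate 2 only for 49 and in neither for 3, the peaks of kin-14, ndua-5 and rps-2. Of the 773 strong peaks, those with a signal of 100 or more at single-gene autosomal promoters, 98.4% had a summit in both. The matched weak peaks had a median signal of 31.5 in replicate 1 (n = 499 peaks, quartiles 23.8 and 40.1) and of 36.3 in replicate 2 (n = 522 peaks, quartiles 26.3 and 45.7). Within the top 3369 peaks of a replicate stood 64.8% of the weak peaks in replicate 1 and 71.0% in replicate 2, against 98.7% and 98.4% of the strong ones.

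**Figure D1:**
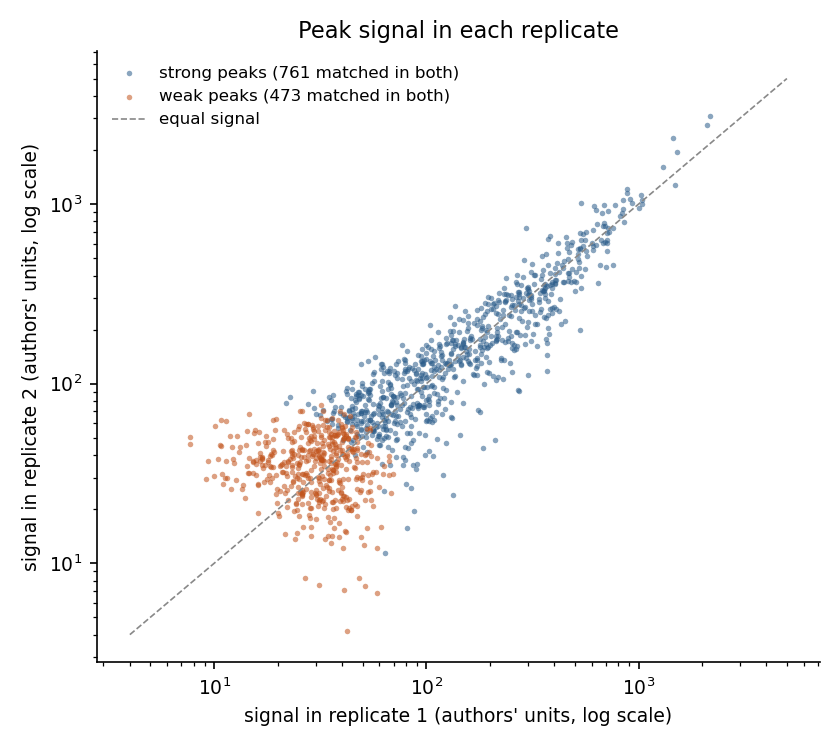
Signal of each peak in replicate 1 (x axis) and replicate 2 (y axis), in the authors' units on log scales, for the 473 weak and 761 strong peaks with a summit within 100 bp in both replicates; the dashed line marks equal signal. The plotted weak peaks form a round cloud between 7.68 and 69.3 in replicate 1, while the strong peaks lie along the line.

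Single members differed between the replicates by varying amounts. The com-1 peak, at the gene for the worm CtIP homologue that acts in resection of DNA breaks, lay at III:10895857-10896200 of ce11 and had a signal of 43.4 in replicate 1, 65.7 in replicate 2 and 99.7 in the pool. The cope-1 peak, at the gene for a subunit of the COPI vesicle coat, had 66.5 in replicate 1 and 39.6 in replicate 2 (98.0 pooled). The rbx-1 peak, at the gene for the RING subunit of cullin ubiquitin ligases, had 10.7 in replicate 1 and 62.6 in replicate 2 (75.1 pooled). The com-1 peak was thus higher in replicate 2 and the cope-1 peak in replicate 1, and the rbx-1 peak was low in replicate 1. Of the 473 members matched in both, 191 had the higher signal in replicate 1. The atfs-1 peak, at the gene for the transcription factor of the mitochondrial unfolded protein response, had 73.3 in replicate 2 and no summit within 100 bp in replicate 1 (95.3 pooled).

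The width of the weak peaks was nearly uniform: 498 of 551 were listed at the same 344 bp, and the rest ranged from 86 to 448 bp. This was the most common width in the whole pooled relaxed list, so it is not particular to the weak peaks. Among the 773 strong peaks 51 had that width, and their median was 236 bp. The median other thresholded summit lay 5269 bp away. Another one lay within 1000 bp of 66 weak summits (12%), and for 29 of the 551 (5.26%) that neighbour had a signal of 100 or more. One example was lgg-2, whose weak summit lay 200 bp from a summit with a signal of 143. In all, 15 genes had both a weak and a strong peak, among them crh-1, gei-4, gsa-1, lgg-2, met-1 and pcf-11.

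Weak summits lay a median of 174 bp upstream of the nearest start (quartiles 294 and 80.0 bp upstream), and strong summits 168 bp upstream (quartiles 275 and 115 bp). More than 200 bp upstream lay 242 weak summits (43.9%) and 325 strong ones (42.0%), a difference of 1.88 percentage points that did not pass (adjusted p = 0.50 by Fisher's exact test, with an odds ratio of 1.08 and limits of 0.860 and 1.35). Downstream of the start lay 57 weak summits (10.3%, 7.93 to 13.2) and 33 strong ones (4.27%, 2.96 to 5.94), with an odds ratio of 2.59 (1.63 to 4.16, Fisher's exact test, p = 2.0e-05). This second comparison was chosen after the quartiles of the position had been seen. Within annotated gene bodies, 11 weak summits (2.00%) lay in coding sequence, 72 (13.1%) in noncoding exon sequence and 86 (15.6%) in introns, against 0.129%, 6.21% and 8.28% of the strong summits. The remaining 382 (69.3%) lay outside coding genes. The weak summits in coding sequence included that of rnr-2, 61 bp downstream of the start of the gene for the small subunit of ribonucleotide reductase, and that of prmt-5, 28 bp downstream of its start. Annotated worm starts often mark a trans-splice site, so true initiation can lie further upstream.

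**Figure D2:**
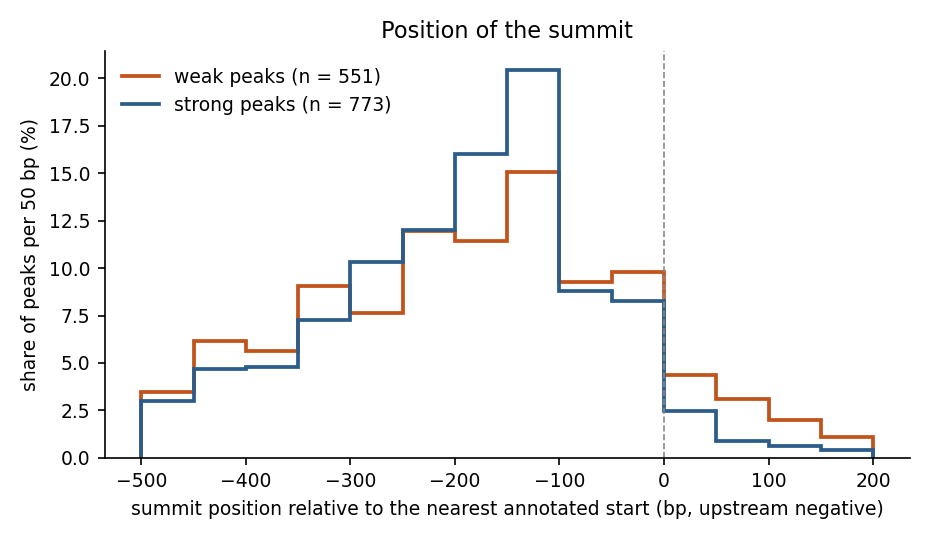
Share of weak (n = 551) and strong (n = 773) peaks per 50 bp of summit position relative to the nearest annotated start, in bp with upstream negative; the dashed line marks the start. Both distributions peak between 150 and 100 bp upstream, and the weak one has more weight downstream of the start, 10.3% against 4.27%.

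E2F sites and CHRs were scarcer at weak summits than at strong ones. The E2F site was present at 12.7% of weak and 28.8% of strong summits (odds ratio 0.359, 95% interval 0.263 to 0.486, adjusted p = 6.3e-12, Fisher's exact test with Benjamini-Hochberg adjustment over 11 comparisons, as for the values that follow). The CHR was present at 41.6% of weak and 64.7% of strong summits (odds ratio 0.389, 0.308 to 0.489, adjusted p = 8.8e-16, Fisher's exact test). E2F letters written backwards, the 4 words read 3′ to 5′ as a check of base composition, were at 10.2% of weak and 14.7% of strong summits (odds ratio 0.654, 0.456 to 0.929, exact test, adjusted p = 0.028), a call lost for weak peaks under 75, among peaks seen in both replicates and in windows of 200 bp either side. Without replicate 2 that difference was larger, -8.71 in place of -4.58 percentage points (exact test, adjusted p = 2.4e-06). Median GC content was 40.3% at weak and 39.3% at strong summits.

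Set against sequence 500 bp away from the same summits, the E2F site was more frequent at the weak summits than downstream, while the difference from upstream did not pass. Every weak summit lay less than 500 bp upstream of its nearest start, so all downstream windows were centred past that start. Downstream comparisons, for every motif, thus set promoter sequence against the transcribed side. For summits upstream of the start, the upstream windows were centred outside the 500 bp start window. The E2F site was in 12.7% of summit windows, 9.44% of windows 500 bp further upstream (McNemar's exact test, adjusted p = 0.15 over 8 motifs) and 5.26% of windows 500 bp further downstream (adjusted p = 3.2e-05). The reversed words rose over both flanks as well, from 3.63% upstream (exact test, adjusted p = 9.0e-05) and 2.90% downstream (adjusted p = 4.4e-06) to 10.2%. The CHR was less frequent at weak summits than in either flank, 41.6% against 54.6% upstream (exact test, adjusted p = 8.0e-05) and 53.7% downstream (adjusted p = 0.00015). With the peaks of replicate 1 alone, thus without replicate 2, the upstream differences fell from 6.53 to 3.18 percentage points for the reversed words (exact test, adjusted p = 0.060) and from -13.1 to -6.92 points for the CHR (adjusted p = 0.060), and with those of replicate 2 alone the upstream difference for the E2F site was 7.38 points (adjusted p = 0.00034) in place of 3.27. The downstream differences also shrank without replicate 2 and still passed: from 7.44 to 4.49 points for the E2F site (exact test, adjusted p = 0.023), from 7.26 to 3.36 for the reversed words (adjusted p = 0.023) and from -12.2 to -6.92 for the CHR (adjusted p = 0.044). GC content moved with these comparisons: its median was 40.3% at the summits, 34.8% in the upstream and 37.3% in the downstream flanks, and its part in them was not tested.

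Some words were more frequent at weak summits than at strong ones. The GAGAG repeat, a purine word, was at 198 weak summits (35.9%, 31.9 to 40.1) and at 205 strong ones (26.5%, 23.4 to 29.8), with an odds ratio of 1.55 (1.22 to 1.98, adjusted p = 0.0010 by Fisher's exact test). It was in 14.3% of upstream flanks (McNemar's exact test, adjusted p = 1.1e-15), 8.89% of downstream flanks (adjusted p = 1.1e-24) and 14.4% of all autosomal promoters. At 94 weak summits (17.1%) it occurred more than once, and 62.4% of its 457 matches lay within 50 bp of the summit. The 3 windows below show 2 genes for muscle attachment proteins, unc-112 (kindlin) and pat-6 (parvin), with several copies each, and nmt-1, one of the highest weak peaks with none of the 4 capitalised motifs in this window, marked as before.
unc-112 (V:14696981-14697071, reverse strand): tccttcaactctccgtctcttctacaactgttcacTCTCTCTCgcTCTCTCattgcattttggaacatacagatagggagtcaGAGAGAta
pat-6 (IV:264517-264607, reverse strand): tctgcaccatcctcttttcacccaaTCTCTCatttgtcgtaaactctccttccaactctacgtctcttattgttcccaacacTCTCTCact
nmt-1 (III:6116613-6116703, reverse strand): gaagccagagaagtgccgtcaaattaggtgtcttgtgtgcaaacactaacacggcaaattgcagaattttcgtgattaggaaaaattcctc

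The SP1-like word was at 11.3% of weak and 7.24% of strong summits (adjusted p = 0.028, Fisher's exact test), and in 5.26% of upstream and 3.63% of downstream flanks (McNemar's exact test, adjusted p = 0.00053 and 9.9e-06). Its difference from strong peaks did not pass under 6 of the alternatives, among them each replicate alone (exact test, adjusted p = 0.42 without replicate 1 and 0.14 without replicate 2). The E-box CACGTG was at 7.62% of weak summits, 3.63% of upstream flanks (exact test, adjusted p = 0.0099) and 3.81% of downstream flanks (adjusted p = 0.010), differences that did not pass without replicate 2 (adjusted p = 0.48 and 0.065). Against strong summits (5.56%) the E-box did not pass (odds ratio 1.40, 0.879 to 2.23, exact test, adjusted p = 0.15). Nor did the GATA word TGATAA, at 15.1% against 11.6% (odds ratio 1.35, 0.963 to 1.88, exact test, adjusted p = 0.10), or the AP-1 word TGACTCA or TGAGTCA, at 3.27% against 1.55% (odds ratio 2.14, 0.966 to 4.92, adjusted p = 0.081). GATA words were in 18.0% and 16.3% of the flanks and AP-1 words in 1.81% and 1.63%, none of which passed against the summits. Without replicate 1, AP-1 passed against strong peaks (2.29 percentage points, exact test, adjusted p = 0.022) and against the downstream flank (2.40 points, adjusted p = 0.022), and without replicate 2 the difference from strong peaks was 0.555 points (adjusted p = 0.59). Over all autosomal promoters the shares were 4.83% for the SP1-like word, 3.64% for the E-box, 21.9% for GATA, 2.61% for AP-1 and 3.66% for the reversed E2F words.

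**Figure D3:**
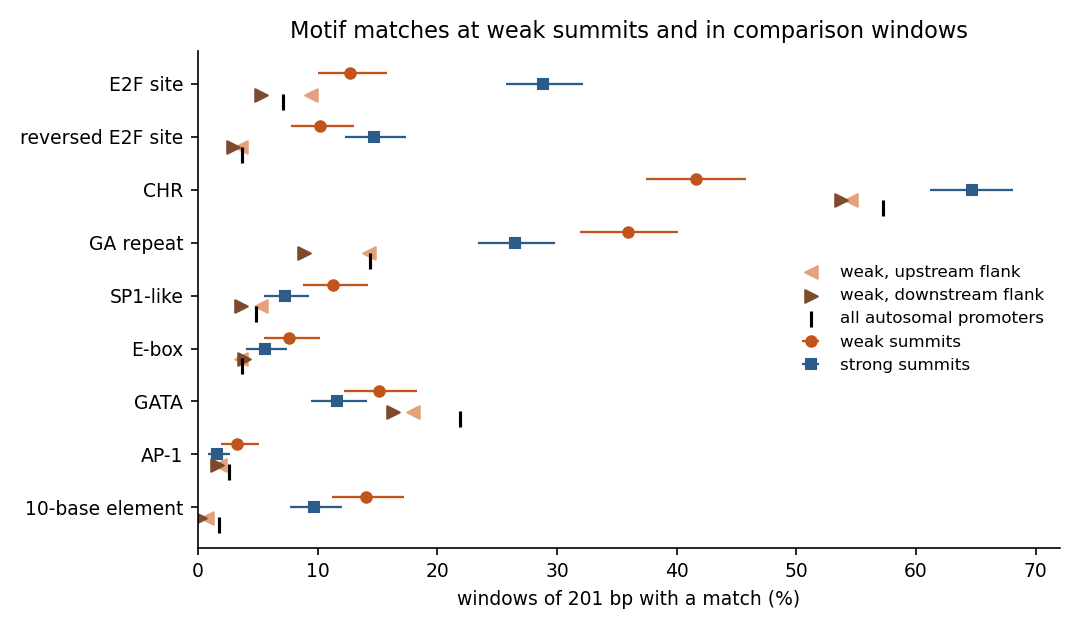
Share of windows of 201 bp with at least 1 match on either strand, by motif, for weak summits (circles) and strong summits (squares) with exact 95% intervals, for the flanks of weak summits 500 bp upstream and downstream (triangles) and for all autosomal promoters (bars), both without intervals. Weak summits stand below strong ones for the E2F site (12.7% and 28.8%) and the CHR (41.6% and 64.7%) and above them for the GA repeat (35.9% and 26.5%); the 10-base element was assembled from these weak windows.

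After the windows had been viewed, all 2080 words of 6 letters were counted. Of these, 163 (7.84%) were more frequent at weak summits than in both flanks and 88 (4.23%) less frequent (McNemar's exact test, adjusted over all words on each side). Against strong summits, 88 words (4.23%) were more and 78 (3.75%) less frequent at the weak ones (Fisher's exact test, adjusted over all words). Without replicate 2, 95 words were more and 33 less frequent than in both flanks, and with 50 bp either side 39 were more frequent than at strong summits. The words above both flanks held a median of 4 G or C letters, against 3 over all words and 2 for the words below both flanks. At the head of the first set stood CGTCTC, at 30.1% of weak summits and in 5.99% of upstream and 7.62% of downstream flanks (exact test, adjusted p = 4.0e-22 and 2.4e-19). It was also more frequent than at strong summits, where its share was 20.4% (exact test, adjusted p = 0.0030).

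The 5 leading words that hold CG and overlap by 5 letters joined into 1 run, TCTGCGTCTC, whose other strand reads GAGACGCAGA. Exact copies lay at 77 of 551 weak summits (14.0%, 11.2 to 17.2), in 4 upstream flanks (0.726%) and in 1 downstream flank (0.181%). Over all autosomal promoters the share was 1.76% (303 of 17242). Because the run was assembled from these windows, its share at weak summits is a description with no test. Strong summits took no part in the assembly: 75 of 773 (9.70%) held a copy, against 8 upstream flanks (McNemar's exact test, p = 3.2e-15) and 1 downstream flank (p = 2.0e-21). With at most 1 letter changed, exact copies included, 26.0% of weak and 17.1% of strong summits matched, against 4.25% of promoters. Of the 80 copies at weak summits 57 lay within 50 bp of the summit, and 48 read TCTGCGTCTC on the strand of the gene. The GAGAG repeat can run on from the end of this word, and 47 of the 77 summits held both. Members seen in both replicates held a copy in 67 of 473 cases (14.2%), and the others in 10 of 78 (12.8%). Windows of 6 weak summits with a copy are shown with only that run in capitals, on the strand of the gene.
ZK1290.5 (II:7529253-7529343, forward strand): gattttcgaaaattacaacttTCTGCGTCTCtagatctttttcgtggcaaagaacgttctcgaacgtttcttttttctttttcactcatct
atfs-1 (V:14193597-14193687, forward strand): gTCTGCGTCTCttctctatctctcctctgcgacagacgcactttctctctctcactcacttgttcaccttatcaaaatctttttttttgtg
T07E3.4 (III:6897763-6897853, forward strand): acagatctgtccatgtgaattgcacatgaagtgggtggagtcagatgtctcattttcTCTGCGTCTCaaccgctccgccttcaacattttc
myrf-1 (II:10502861-10502951, reverse strand): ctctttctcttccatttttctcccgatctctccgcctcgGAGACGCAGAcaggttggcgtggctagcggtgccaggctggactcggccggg
gly-8 (III:11624970-11625060, forward strand): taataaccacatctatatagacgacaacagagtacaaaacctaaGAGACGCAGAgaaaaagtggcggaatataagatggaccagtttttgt
mecr-1 (II:13187358-13187448, reverse strand): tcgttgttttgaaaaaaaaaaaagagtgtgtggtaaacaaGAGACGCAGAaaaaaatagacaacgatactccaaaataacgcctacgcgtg

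These 6 were taken from the 8 weak peaks of highest signal with a copy on chromosomes II to V, keeping those whose copy lay inside the printed window. The copies of ZK1290.5, atfs-1 and T07E3.4 ran in the direction of the gene, and those of myrf-1, gly-8 and mecr-1 against it.

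The motifs followed the pooled signal in different ways. Among pooled peaks at single-gene promoters, including 4536 below the threshold of the list, the E2F site was in 8.71% of windows at a signal under 12, in 11.7% from 46.4 to 60, in 15.2% from 75 to 100 and in 38.8% above 500. The CHR was in 50.7% at a signal under 12, in 39.4% from 46.4 to 60 and in 82.8% above 500, so its lowest share fell among the weak peaks. The GAGAG repeat was in 16.5% of windows under 12, in 32.6% from 20 to 46.4, in 34.3%, 38.5% and 35.4% of the 3 classes of weak peaks, in 34.3% from 100 to 200 and in 19.6% above 500. The classes on either side of the weak peaks thus had shares close to theirs. The 10-letter run was in 1.81% under 12, in 7.61% from 20 to 46.4, in 16.0%, 11.5% and 14.0% of the weak classes, in 12.5% from 100 to 200 and in 8.13% above 500. The share of summits downstream of the start was 29.5% under 12 and 2.39% above 500, with 13.1%, 7.47% and 9.76% in the 3 classes of weak peaks.

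**Figure D4:**
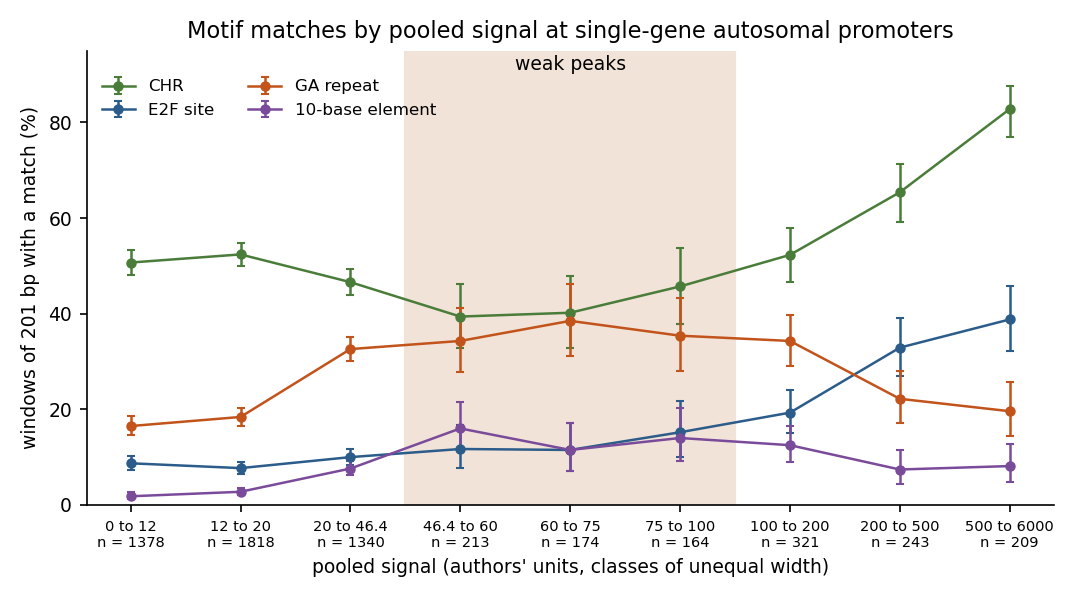
Share of windows of 201 bp with a match (y axis) by class of pooled signal in the authors' units (x axis, classes of unequal width) at single-gene autosomal promoters, with exact 95% intervals; shading marks the 3 classes of weak peaks. The CHR has its lowest share, 39.4%, among the weak peaks, and the GA repeat lies between 32.6% and 38.5% from a signal of 20 to 200, while the E2F site reaches 38.8% above a signal of 500.

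Start sites of small RNA genes lay within 250 bp of 25 weak summits (4.54%) and 16 strong ones (2.07%), with an odds ratio of 2.25 (1.14 to 4.55, adjusted p = 0.028 by Fisher's exact test). The 25 were 13 tRNA, 10 snoRNA, 1 snRNA and 1 miRNA genes. Among them were the snoRNA genes K04D7.17 at the rack-1 peak and M03D4.78 at the zen-4 peak, 2 coding genes for a ribosome-associated protein and for the kinesin of the central spindle. The difference did not pass when windows holding a 31-letter word found more than once in the genome were left out (exact test, adjusted p = 0.34, 0.894 percentage points), nor among peaks seen in both replicates (adjusted p = 0.098) or for weak peaks under 75 (adjusted p = 0.082). Such repeated words were in 6.53% of weak windows. A coding gene on the same strand ended within 1000 bp upstream, as inside operons, at 35.0% of weak and 40.8% of strong promoters, which did not pass (odds ratio 0.784, 0.621 to 0.989, exact test, adjusted p = 0.061). With the start window widened to 1000 bp upstream the difference was -12.8 in place of -5.72 percentage points and passed (exact test, adjusted p = 6.1e-06).

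By gene, 541 of 17242 autosomal protein-coding genes (3.14%) had a weak single-gene peak and 764 (4.43%) a strong one. Of the 541 genes, 95 were in at least 1 of 33 gene lists and 446 in none. Together the lists held 3280 of the 17242 autosomal genes, a share close to that among the 541. The lists are described by these counts, with no test. Peaks in the windows of several genes enter neither the weak nor the strong counts.

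Cell cycle genes, the textbook targets of E2F, had weak peaks at shares near that of all genes (3.14%) and strong peaks at higher shares than all genes (4.43%). Of 44 DNA replication genes 2 had a weak peak (4.55%) and 18 a strong one (40.9%), and of 83 genes of mitosis and cytokinesis 4 had a weak peak (4.82%) and 17 a strong one (20.5%). With peaks in the windows of several genes counted, thresholded peaks lay at 36 replication genes (81.8%) and 54 genes of mitosis and cytokinesis (65.1%). The 2 replication genes with a weak peak were mus-101, the TopBP1 homologue, with a signal of 25.7 in replicate 1 and 39.2 in replicate 2 (68.2 pooled), and rnr-2, with no summit in replicate 1 and 19.7 in replicate 2 (50.3 pooled). The rnr-2 summit lay 768 bp from the weak summit of C03C10.7 (82.5 pooled), whose window with 3 E2F sites and 3 CHRs is shown above. That summit lay upstream of rnr-2, outside its window, so by the rule it belonged to C03C10.7 alone. The 4 mitotic genes with a weak peak were cyk-7, klp-7, zen-4 and zyg-9. The cyk-7 peak, which carried both an E2F site and a CHR in the window shown, had 56.2 in replicate 1 and 32.3 in replicate 2 (88.7 pooled). com-1 was the 1 weak peak among 49 DNA repair genes (2.04%, 11 strong), and met-1, a histone H3 lysine methyltransferase gene, the 1 among 28 DRM and synMuv genes (3.57%, 9 strong).

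Autophagy and lysosome genes stood at the other end. Of 25 such genes 8 had a weak peak (32.0%, beside 3.14% of all genes) and 5 a strong one (20%, beside 4.43%). The 8 were atg-13, atg-18, cup-5, epg-4, epg-5, hlh-30, lgg-1 and lgg-2. cup-5, which encodes the lysosomal TRPML1 channel, had 41.0 in replicate 1 and 52.5 in replicate 2 (93.3 pooled), and its summit lay 119 bp into the transcribed side of the start. epg-4, an autophagy gene of the endoplasmic reticulum, had 31.7 and 50.3 (82.0 pooled), and hlh-30, the TFEB transcription factor that controls autophagy genes, had 31.8 and 33.4 (50 pooled). These 3 peaks were present in both replicates, and epg-4 was the least even of them.

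Of the other 5, lgg-1 and atg-13 had a summit in both replicates. lgg-1, which encodes an Atg8 family protein of the autophagosome membrane, had 40.6 in replicate 1 and 23.7 in replicate 2 (60.8 pooled). atg-13, a subunit of the initiating kinase complex, had 15.7 and 37.4 (51.5 pooled). The peaks of atg-18 (41.9, 68.8 pooled) and lgg-2 (93.8, 59.9 pooled) had a summit in replicate 1 only, and that of epg-5 (32.1, 49.4 pooled), whose product ties autophagosomes to lysosomes, in replicate 2 only. As given above, a stronger summit lay near the weak one of lgg-2, and this gene counts among both the weak and the strong ones. Whether the 93.8 in replicate 1 belongs to that stronger summit was not tested. The summits of all 8 lacked an E2F site within 100 bp, 3 had a CHR (atg-13, cup-5 and lgg-2), 3 a GAGAG repeat (atg-18, hlh-30 and lgg-1) and 2 an E-box (atg-13 and epg-5). Over all weak summits the shares were 12.7% for the E2F site, 41.6% for the CHR, 35.9% for the GAGAG repeat and 7.62% for the E-box. With 8 summits, differences from these shares cannot be told and were not tested.

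Vesicle traffic gave the largest number of weak peaks of any list, 13 of 126 genes (10.3%), with 15 strong (11.9%). They included the coat genes cope-1, sec-31 and sec-16A.1, the small GTPase genes arf-1, arf-5, rab-11.1 and rab-39, and vha-10, vha-14 and vha-19, subunits of the proton pump that acidifies lysosomes. sec-31, of the COPII coat, had 52.5 in replicate 1 and 36.7 in replicate 2 (84.4 pooled). An E2F site was found at 1 of the 13, beside 12.7% of all weak summits, and the difference was not tested. That 1 was snx-13, the lowest of them at 12 and 25.8 (46.6 pooled).

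The following lists of gene expression and protein turnover had weak shares between those of DNA replication and of autophagy genes. Of 46 ubiquitin genes 5 had a weak peak (10.9%) and 12 a strong one (26.1%), of 57 chromatin and transcription genes 6 (10.5%) and 11 (19.3%), and of 39 translation factor genes 4 (10.3%) and 12 (30.8%). The chromatin genes were cit-1.1, mys-4, swsn-1, swsn-9, taf-10 and wdr-5.1. None of their 6 summits had an E2F site within 100 bp, too few summits to tell from the 12.7% of all weak summits. Of 80 cytosolic ribosome genes 4 had a weak peak (5%) and 27 a strong one (33.8%). Among these, rack-1 was higher in replicate 2 (68.1) than in replicate 1 (14.6, 78.3 pooled), and rps-25 had 44.6 and 57.1 (99.8 pooled). With peaks in the windows of several genes counted, thresholded peaks lay at 71 of the 80 ribosome genes (88.8%). Nuclear pore genes had 3 weak peaks of 47 (6.38%) and 18 strong (38.3%).

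Lists of differentiated tissues differed. Of 1331 chemoreceptor genes 2 had a weak single-gene peak (0.150%) and of 107 neuropeptide and insulin genes none. Neither list had a strong one. Of the 46 genes of the neuron list 4 had a weak peak (8.70%, beside 3.14% of all genes) and none a strong one. They were snb-1 (synaptobrevin), with 42.9 in replicate 1 and 44.4 in replicate 2 (84.7 pooled), ric-3 (an acetylcholine receptor chaperone), with 32.2 and 22.2 (52.8 pooled), egl-30 (the Gq alpha subunit), with 24.0 and 13.7 (50.4 pooled), and egl-21 (a carboxypeptidase for neuropeptides), with 14.2 and 34.9 (49.1 pooled). All 4 were present in both replicates, and egl-30 was the 1 with an E2F site, beside 12.7% of all weak summits. Of 32 muscle genes, unc-112 (39.1 and 70.3, 99.3 pooled) and pat-6 (32.3 and 30.6, 56.4 pooled) had weak peaks and as many had strong ones (6.25% each). Of 25 intestinal genes 1 had a weak peak, cup-5, and 1 a strong one.

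Nuclear hormone receptor genes had 7 weak peaks of 247 (2.83%) and 1 strong (0.405%), a weak share close to that of all genes. The highest was nhr-256, with 34.7 in replicate 1 and 53.8 in replicate 2 (86.9 pooled). Signalling genes had 5 of 67 (7.46%, 4 strong), among them sma-2, a Smad of the body size pathway (32.6 and 44.9, 78.8 pooled), and lin-45, the Raf kinase (64.2 pooled). cep-1, the p53 homologue, was the 1 weak peak of 17 cell death genes, with 62.6 and 31.4 (95.3 pooled). No weak or strong single-gene peak lay at the listed genes of the germline and P granules (45), epidermis and cuticle (31), collagens (148), neuropeptides and insulins (107) or sperm (89). Over all autosomal genes the shares were 3.14% weak and 4.43% strong, so few peaks would fall in the smaller lists and their zeros tell little. With peaks in the windows of several genes counted, thresholded peaks lay at 2 germline, 3 collagen, 1 neuropeptide or insulin and 2 sperm genes. The share of all genes with any thresholded peak is not given here.

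**Figure D5:**
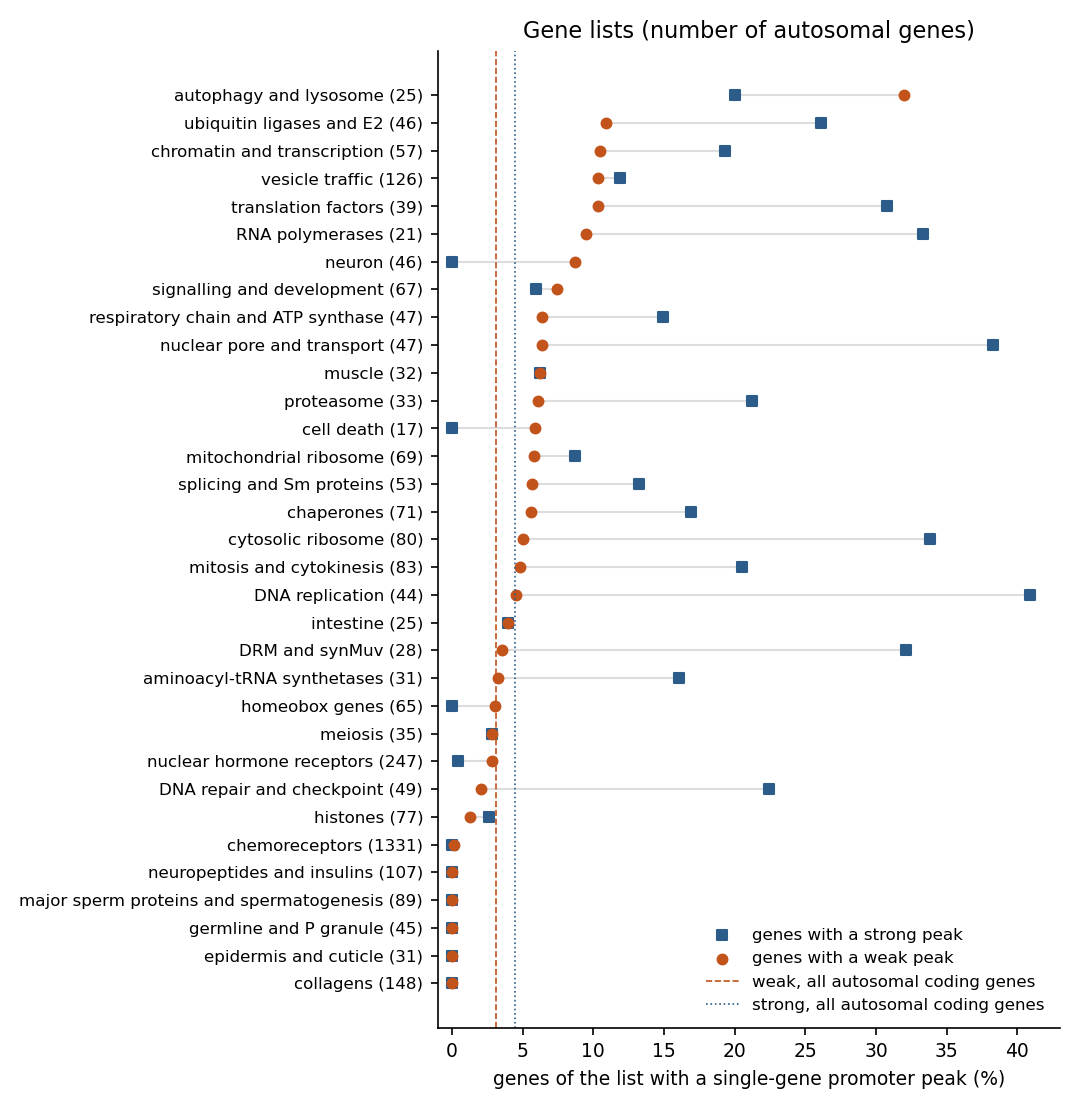
Share of the autosomal genes of each list (number in brackets) with a weak (circles) or a strong (squares) single-gene promoter peak, in percent; vertical lines mark the shares over all autosomal protein-coding genes, 3.14% and 4.43%. Autophagy and lysosome genes have the highest weak share, 32.0%, and DNA replication genes the highest strong share, 40.9%.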

How the data were processed

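ChIP-seq measured where GFP-tagged DPL-1 lay in whole L4 worms; the labels give 1 group with 2 biological replicates. The authors deposited a relaxed peak list of 30000 rows for each replicate and for their pool, and an IDR-thresholded list derived from them, each on ce11; per the deposited file listing the lists were called against a further alignment taken here to be the control. Signal values were deposited by the authors; the sources used here do not give their scale, nor the aligner or the peak caller with versions. The −log10 q deposited by the authors was not used in any comparison. The summit is the deposited peak start plus the deposited offset. No read counts are in the lists, so depth is unknown. The ce10 lists were not used here.

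Peaks were matched to protein-coding transcript starts of Ensembl release 115 and to the RefSeq WBcel235 sequence with Python 3.11.15, numpy 2.4.6 and scipy 1.17.1. A summit within 100 bp matched a peak to a replicate, taking the nearest. Motifs were searched on both strands within 100 bp of the summit. Weak and strong peaks were compared by Fisher's exact test (two-sided, Benjamini-Hochberg over 11 comparisons) and summits with flanks by McNemar's exact test (two-sided, over 8 motifs per flank), at a threshold of 0.05. Peaks are not independent animals, so these p-values describe the peaks of 1 experiment. Intervals are exact 95% Clopper-Pearson intervals and cover counting only; odds ratios are conditional estimates. The scripts were tested on simulated windows and positions.

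Named genes were the 6 members of highest and the 6 of lowest signal, the 2 of highest signal in each list and the 4 with the most E2F sites and CHRs, with ties broken by higher signal; other names complete a list, a bound or a small count and were chosen after their values were seen. Not every gene of the rule is printed. The members, the 33 gene lists and the motifs were chosen with earlier results of these data known. Alternatives changed the start window, signal bound, replicates, motif window, flank and distances.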

Additional observations from a re-analysis of the deposited data

How the results depend on the processing

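No paired analysis was possible because the labels give 1 group. Of 243 alternative values over 15 settings, 204 kept direction and call, among them every value of the E2F site, the CHR and the GAGAG repeat against strong peaks and of the summits downstream of the start. The setting without repeated 31-letter words, the comparison of downstream summits and the counts of 6-letter words were added after the data were seen. Differences below are in percentage points and the cause of each change was not tested.

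With a start window from 1000 bp upstream, weak minus strong became 5.42 for GATA, 1.85 for AP-1 and -12.8 for the same-strand gene, and summit minus upstream flank 5.11 for the E2F site and 2.17 for AP-1, all now passing. With weak peaks under 75, replicate support was 82.2%, 62 listed genes had a weak peak, summits over 200 bp upstream turned to -0.184, and the reversed E2F words (-4.15), SP1-like word (4.13) and small RNA genes (2.32) no longer passed. Among peaks in both replicates the same 3 no longer passed (-4.49, 3.90 and 1.91), and 9.09% had another summit within 1000 bp. With 50 bp either side of the summit the SP1-like word no longer passed (2.01), and GATA against strong peaks (2.86), GATA against the upstream flank (-5.08) and the E2F site against the upstream flank (4.36) now did. With 200 bp either side the reversed words (-3.72) no longer passed and AP-1 (2.78) did. With flanks at 1000 bp, the E2F site (5.99) and AP-1 (2.18) passed upstream. Without repeated words the SP1-like word (2.90) and small RNA genes (0.894) no longer passed. Replicate support was 67.5% within 50 bp and 96% within 200 bp, and another summit lay within 500 bp of 4.72%.

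Leaving out a replicate changed these ranges, given as lowest and highest: -3.53 and 0.127 for summit over 200 bp upstream, weak minus strong for the SP1-like word 1.36 and 2.67, weak minus strong for AP-1 0.555 and 2.29, summit minus upstream flank for the E2F site 1.5 and 7.38, summit minus upstream flank for the reversed words 3.18 and 5.72, summit minus upstream flank for the CHR -15.5 and -6.92, summit minus upstream flank for the E-box 1.68 and 4.43, summit minus downstream flank for GATA -0.748 and 0.369, summit minus downstream flank for the E-box 2.80 and 4.43, summit minus downstream flank for AP-1 1.12 and 2.40. Calls held while values moved by over 1.5 times for weak minus strong for the reversed words, -8.71 and -5.76, and for summit minus downstream flank for the E2F site 4.49 and 7.56, the reversed words 3.36 and 6.83 and the CHR -9.96 and -6.92. The counts of 6-letter words above both flanks, 163, were 106 for weak peaks under 75 and 95 without replicate 2; those below both flanks, 88, were 152 with the wider start window, 37 under 75, 58 for peaks in both replicates and 33 without replicate 2; and those above strong peaks, 88, were 39 with 50 bp either side.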
